A study of Mus musculus with 34 samples.

Results

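The striated-muscle myosin heavy chains are the motor proteins of the sarcomere's thick filament, and their genes were followed here across cardiac fibroblasts, cells converted toward cardiomyocytes, and cardiomyocytes. The members were taken by gene symbol in the scanner output: Myh1, Myh2, Myh3, Myh4, Myh6, Myh7, Myh7b and Myh8. All 8 had a probe and all 8 were tested, among 19413 genes in all. RNA was measured on 34 single-colour mouse arrays that fall into 17 groups of 2.

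Every group came from CD1 mice that carry aMHC-GFP, a reporter driven by the promoter of Myh6, so cells with and without the conversion factors shared that transgene. Freshly isolated neonatal cardiac fibroblasts (neoCF) and neonatal cardiomyocytes (neoCM) were taken from pups of postnatal day 1.5. Cultured cardiac fibroblasts were sampled before infection (CF D0) and 3, 5, 7, 10 and 14 days after infection with a retrovirus carrying either LacZ (LacZ groups) or a single transcript that encodes Mef2c, Gata4 and Tbx5 (MGT groups). Induced cardiomyocytes (iCM) were sampled at 4 weeks. Cardiomyocytes differentiated from induced pluripotent stem cells, themselves made from such fibroblasts with Oct4, Sox2, Klf4 and cMyc, came from line 1 at day 13 (iPSC1-CM) and from line 2 at day 9 and, after long culture, at day 29 (iPSC2-CM D9 and D29). StemPro-34 medium was used for iCM and for cells derived from iPSC, with VEGF, bFGF and FGF10. The labels do not say that the 2 arrays of a group came from separate cultures or animals, so p-values measure only the spread between these samples. Each iPSC line is 1 line, and whether MGT cells were sorted on the reporter before RNA was taken is not given in the sources used here.

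A heavy chain sets how fast a sarcomere shortens and how much ATP it spends. In the mouse heart the ventricle moves around birth from the slow chain encoded by Myh7 to the fast chain encoded by Myh6. These genes lie next to each other and carry related microRNAs in their introns. Myh7b encodes a further slow-type chain, and the arrays measured its RNA, not its protein. Skeletal muscle passes from the embryonic chain of Myh3 and the perinatal chain of Myh8 to the adult fast chains IIa (Myh2), IIx (Myh1) and IIb (Myh4). Cardiac muscle is not known for high levels of the adult fast skeletal chains.

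The members are close relatives, so the letters of the probes decide which gene each value belongs to. The 11 probes are 60 bases long. The 5 skeletal genes lie on chromosome 11 (mm9), with probes from chr11:66915107-66915166 for Myh3 to chr11:67121925-67121984 for Myh8. Myh6 is read at chr14:55560774-55560833 and Myh7 at chr14:55589581-55589640, both on the minus strand, and Myh7b at chr2:155459122-155459181. All but 2 probes start at base 5734 or later of their target transcript, near its 3′ end; the others, for Myh6 at chr14:55584132-55584191 and for Myh8 at chr11:67093475-67093534, start at bases 308 and 477. No pair of member probes was nearly identical. Only probes were compared with one another, not with the other members' whole transcripts, so cross-reading was not tested. The Myh3 probe A_55_P2083406, which does not stand for the gene below, shared a run of 16 bases with a probe for Myh15. The closest pair of member probes, shown for how alike the family is, shared 29 of 48 aligned bases, which are in capitals:
Myh3 probe A_55_P2083406: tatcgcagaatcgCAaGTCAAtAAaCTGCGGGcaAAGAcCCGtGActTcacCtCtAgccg
Myh8 probe A_51_P143296: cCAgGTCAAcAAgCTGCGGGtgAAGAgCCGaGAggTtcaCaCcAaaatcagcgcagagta

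The largest changes of the time course rest on Myh6 and Myh7b. Values for Myh6 below are those of its 3′ probe A_55_P2173952, whose sequence is not shown, unless stated otherwise. Shown here are the 5′ probe of Myh6, which does not stand for the gene, and the probe of Myh7b:
Myh6 probe A_55_P2140453: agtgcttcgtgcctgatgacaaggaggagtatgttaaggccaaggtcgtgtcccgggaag
Myh7b probe A_55_P2057321: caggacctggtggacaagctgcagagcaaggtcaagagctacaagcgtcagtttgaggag
Where a member had a second probe, the probe with the higher mean stands for the gene below. Over the 17 group means the probes of one gene followed each other, with r = 0.97 for Myh3, 0.929 for Myh6 and 0.966 for Myh8.

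Upstream of the start sites, 4 of the skeletal members had a stretch of letters in common. RefSeq promoter windows (GRCm38.p6) were searched over the 250 bases before the start. There the 14 bases TTCTAATTATATCC, in capitals below, stood 160 bases before the start of Myh1, 125 before Myh2, 158 before Myh4 and 54 before Myh8, all on the plus strand. They occurred in 4 of 32851 windows, which were these 4. The stretch was picked from these windows themselves, so its rarity is a description:
Myh1, chr11:67199922-67199975: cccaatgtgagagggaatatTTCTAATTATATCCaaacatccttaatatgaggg
Myh2, chr11:67170882-67170935: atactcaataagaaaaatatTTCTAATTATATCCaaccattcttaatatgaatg
Myh4, chr11:67237634-67237687: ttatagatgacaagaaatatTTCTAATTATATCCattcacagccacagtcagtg
Myh8, chr11:67277050-67277103: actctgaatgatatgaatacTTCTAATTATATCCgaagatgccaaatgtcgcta
Both strands were also searched for a GATA motif (AGATAA), which 9.99% of all windows hold and, among the members, Myh7b holds, 133 bases before its start. For MEF2 a single form of the motif was searched, with set bases at both ends and any bases between (3.2% of windows). That form and a T-box motif (AGGTGT, 11.8%) were in no member's window. This says only that those forms are not in this window. Other forms of the MEF2 motif were not searched, so whether a member's window holds a MEF2 site was not tested.

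The microRNAs inside the cardiac members are related too. In RefSeq (GRCm38.p6) the mature microRNA of Myh6 and that of Myh7 share the seed UAAGACG and that of Myh7b differs in its last seed base; bases 2 to 8 are in capitals, and the arrays did not measure these RNAs:
Myh6, mmu-miR-208a-3p: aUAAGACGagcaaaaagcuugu
Myh7, mmu-miR-208b-3p: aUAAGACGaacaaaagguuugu
Myh7b, mmu-miR-499-5p: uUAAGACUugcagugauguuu

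A level below is the log2 processed signal of a probe minus the log2 of the 75th percentile of its array, so 0 is the array's 75th percentile and a step of 1 is a doubling. Probes differ in how brightly they bind, so levels are compared between samples of one gene only. A value is called not well above background where the scanner software marked it so; a fold change against such a group is given as a lower bound, using the higher of the dimmest reliable signal of each array and the probe's own. Differences were tested with limma across all 34 arrays and all 19413 genes, with Benjamini-Hochberg adjustment, and are called changed at an adjusted p under 0.05 and at least 2-fold. Between 28715 and 44881 spots per array were well above background and 0 were saturated; the number of arrays limits the precision, as does background for faint members such as Myh3 and Myh4. The arrays of a group correlated at 0.984 to 0.997, except those of iPSC2-CM D29, at 0.895. Each gene had a single spread pooled over all groups, so the unlike iPSC2-CM D29 arrays entered every limma standard error and p-value. For Myh1 and Myh7 the standard deviation was 2.91 and 2.46 in iPSC2-CM D29 and 0.07 and 0.08 in MGT D3. Arrays sat on 6 slides: MGT and LacZ shared a slide on each of days 3 to 10, and shared a scan day but no slide on day 14. Slide and group cannot be told apart for neoCM against neoCF, iPSC1-CM or iPSC2-CM D9 against neoCM, iCM against the iPSC-derived cells and iCM against LacZ D14 or MGT D14. The same holds for CF D0 against MGT on any day and against LacZ before day 14, as CF D0 shared a slide with LacZ D14 only. Days 3 and 5 shared a slide, as did days 7 and 10, so steps between these pairs or to day 14 hold a change of slide.

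**Figure D1:**
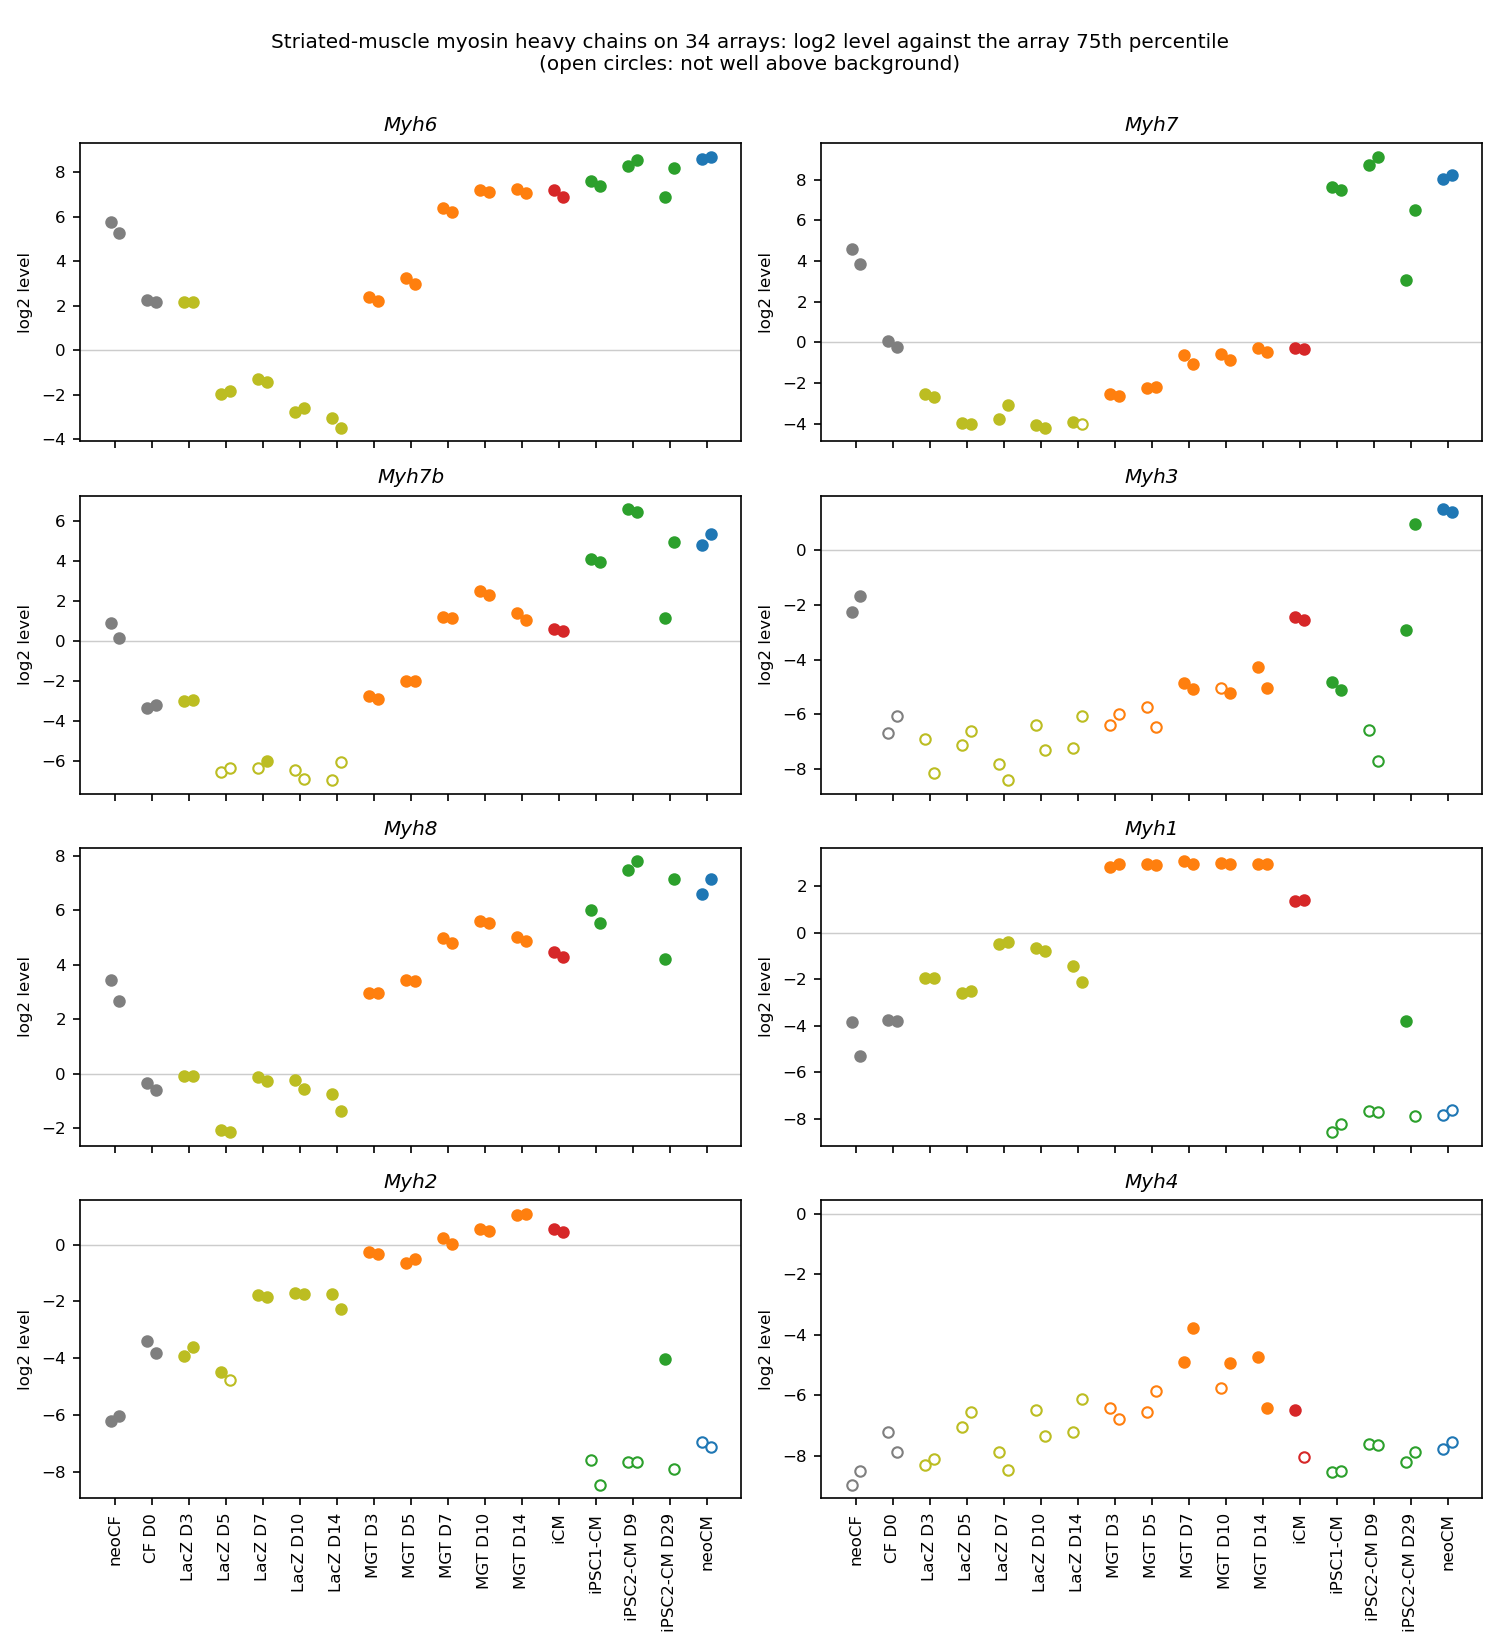
Log2 level of each heavy chain (y axis, relative to the array's 75th percentile) in each array of the 17 groups (x axis); open circles are values not well above background. Myh6 was above background on all 34 arrays, while Myh1 and Myh2 were high in MGT cells and iCM and not above background in neoCM.

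In fibroblasts given MGT, the heavy chains differed from LacZ in steps. On day 3 the skeletal members Myh1, Myh2 and Myh8 were higher than with LacZ, on day 5 Myh6 and Myh7b as well, and on day 7 Myh7, Myh3 and Myh4 were first called. That order depended on the setting: Myh4 was called on day 3 with quantile scaling (limma adjusted p = 0.028), with only the compared groups (0.0092) and with array weights (0.0021). Myh4 was not well above background on any MGT or LacZ array of day 3, so these calls compare background values. Myh7 was called on day 5 with quantile scaling (0.033), in the authors' table (0.042), with only the compared groups (0.0024), with array weights (1.1e-07) and without the iPSC2-CM D29 arrays (6.1e-06). On day 3, 3 of 8 members were called higher, against 3.18% of all genes tested called higher. The counts were 5 of 8 on day 5 (4.91% of all genes), 7 of 8 on day 7 (5.31%), 6 of 8 on day 10 (5.24%) and 6 of 8 on day 14 (5.84%). With any 1 of the 4 arrays of a day left out, 5 to 7 members were called on day 7 and 5 on day 10. The median member difference was 1.46 on day 3 and 4.16 on day 14, where the median over all genes was -0.06 and -0.13. In such bulk RNA, fewer cells that express a gene and less of its RNA per cell cannot be told apart. The 14-day split over all genes moved with the scaling: 44.2% of its called genes were higher here and 63.5% after quantile scaling.

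Myh6, the fast cardiac chain, stood at 2.24 and 2.18 before infection. Its levels with MGT were 2.41 and 2.20 on day 3, 3.23 and 2.99 on day 5, 6.42 and 6.20 on day 7, 7.21 and 7.14 on day 10 and 7.26 and 7.09 on day 14. With LacZ they were 2.15 and 2.17 on day 3, -1.95 and -1.83 on day 5, -1.28 and -1.45 on day 7, -2.79 and -2.62 on day 10 and -3.06 and -3.49 on day 14. The MGT and LacZ arrays lay close together on day 3 and far apart on every later day, with LacZ below the uninfected fibroblasts and MGT above them. The log2 difference was 0.15 ± 0.28 (SE) on day 3 (limma adjusted p = 0.93) and 5.0 ± 0.28 on day 5 (adjusted p = 1.1e-10). It reached 9.88 on day 10, 940.1-fold, and 10.45 on day 14, 1398-fold (limma adjusted p = 6.3e-15 and 2.2e-15). The 5′ probe of Myh6 was dimmer, with means of -4.85 with MGT and -5.28 with LacZ on day 3 and -0.45 with MGT on day 10; with LacZ it was well above background on 1 of the 8 arrays from day 5 on, a day 10 array at -4.78.

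Myh7, the slow cardiac chain, moved far less. Before infection it stood at 0.07 and -0.25. With MGT it was -2.55 and -2.66 on day 3, -0.61 and -1.07 on day 7, -0.55 and -0.87 on day 10 and -0.27 and -0.47 on day 14, so that every MGT array was below both CF D0 arrays. With LacZ it was -2.56 and -2.67 on day 3, -3.78 and -3.09 on day 7, -4.06 and -4.2 on day 10 and -3.92 and -4.02 on day 14. The groups coincided on day 3 (difference 0.01) and did not overlap on any later day, with differences on day 7 of 2.6 (limma adjusted p = 0.0053), 3.42 on day 10 and 3.6 on day 14. The day 7 call was lost without MGT replicate 1 (adjusted p = 0.064) or LacZ replicate 1 (0.072). On day 5 the difference of 1.79 did not pass the test (adjusted p = 0.057).

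Myh7b, the second slow-type chain, followed Myh6 in time. With MGT it was -2.74 and -2.88 on day 3, -2.02 and -2.0 on day 5, 1.23 and 1.17 on day 7, 2.50 and 2.33 on day 10 and 1.39 and 1.08 on day 14. With LacZ it was -2.99 and -2.97 on day 3 and then at or near background, with 1 of the 8 later arrays well above it. Its rise with MGT over LacZ was therefore a lower bound, at least 5.77-fold on day 5, at least 130.5-fold on day 10 and at least 59.6-fold on day 14, with fitted log2 differences of 4.46, 9.11 and 7.74. On day 3 the difference was 0.17 (limma adjusted p = 0.99).

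Among the developmental skeletal chains, Myh8, the perinatal chain, was the earlier. It stood at -0.33 and -0.61 before infection. With MGT it was 2.96 on both arrays of day 3, 3.45 and 3.40 on day 5, 4.98 and 4.82 on day 7, 5.62 and 5.53 on day 10 and 5.01 and 4.86 on day 14. With LacZ it was -0.08 on both arrays of day 3, -2.08 and -2.15 on day 5 and between -0.10 and -1.37 from day 7 to day 14. MGT arrays were above LacZ arrays on every day, by 3.04 ± 0.53 on day 3 (limma adjusted p = 5.9e-04), 5.54 on day 5, 5.95 on day 10 and 5.99 on day 14. The 5′ probe of Myh8 gave -3.93 with MGT on day 3 and was not well above background with LacZ.

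Myh3, the embryonic chain, was faint in these cultures. It was not well above background on any LacZ array, nor with MGT on days 3 and 5, and with MGT it read -4.87 and -5.09 on day 7 and -4.26 and -5.03 on day 14. The day 7 difference was called (3.12, limma adjusted p = 0.008; at least 1.82-fold), but not with normexp and quantile scaling (0.9, adjusted p = 0.5), in the authors' table (1.98, 0.094), or without MGT replicate 1 (0.066) or LacZ replicate 2 (0.082); the day 14 difference of 2.0 was not (adjusted p = 0.068). Myh4, the adult IIb chain, was well above background on 6 of 34 arrays in all, 5 of them MGT arrays of days 7 to 14 and the other 1 of the 2 iCM arrays. It was called on day 7, at -4.90 and -3.77 with MGT (3.83, adjusted p = 3.7e-05; at least 2.86-fold).

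The adult fast chains Myh1 and Myh2 already differed on day 3, and Myh1 then had a flat course with MGT. Myh1 stood at -3.76 and -3.81 before infection. With MGT it was already 2.83 and 2.93 on day 3, and every later MGT array lay between 2.92 and 3.06. With LacZ it was -1.94 and -1.93 on day 3, -2.59 and -2.52 on day 5, -0.48 and -0.41 on day 7, -0.66 and -0.79 on day 10 and -1.45 and -2.10 on day 14. The LacZ arrays were thus above the uninfected fibroblasts on every day, although they sat on other slides than those up to day 10. The difference of MGT from LacZ was 4.81 ± 0.73 on day 3 (limma adjusted p = 1.4e-04), 5.5 on day 5, 3.44 on day 7, 3.7 on day 10 and 4.72 on day 14.

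Myh2 also differed from day 3, but was not flat with MGT. It was -3.39 and -3.82 before infection, -0.27 and -0.32 with MGT on day 3, -0.64 and -0.52 on day 5, 0.23 and 0.03 on day 7 and 1.04 and 1.09 on day 14. With LacZ it was -3.94 and -3.62 on day 3, -4.48 and -4.76 on day 5, -1.79 and -1.84 on day 7 and -1.74 and -2.27 on day 14. The LacZ arrays overlapped CF D0 on day 3, lay below it on day 5 and above it from day 7, and MGT and LacZ did not overlap on any day. The differences were 3.49 ± 0.67 on day 3 (limma adjusted p = 0.0015), 4.04 on day 5, 2.24 on day 10 and 3.07 on day 14, and 1.94 on day 7, which missed the threshold (adjusted p = 0.057). The day 10 call was lost whichever of its 4 arrays was left out (adjusted p from 0.1 to 0.12).

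**Figure D2:**
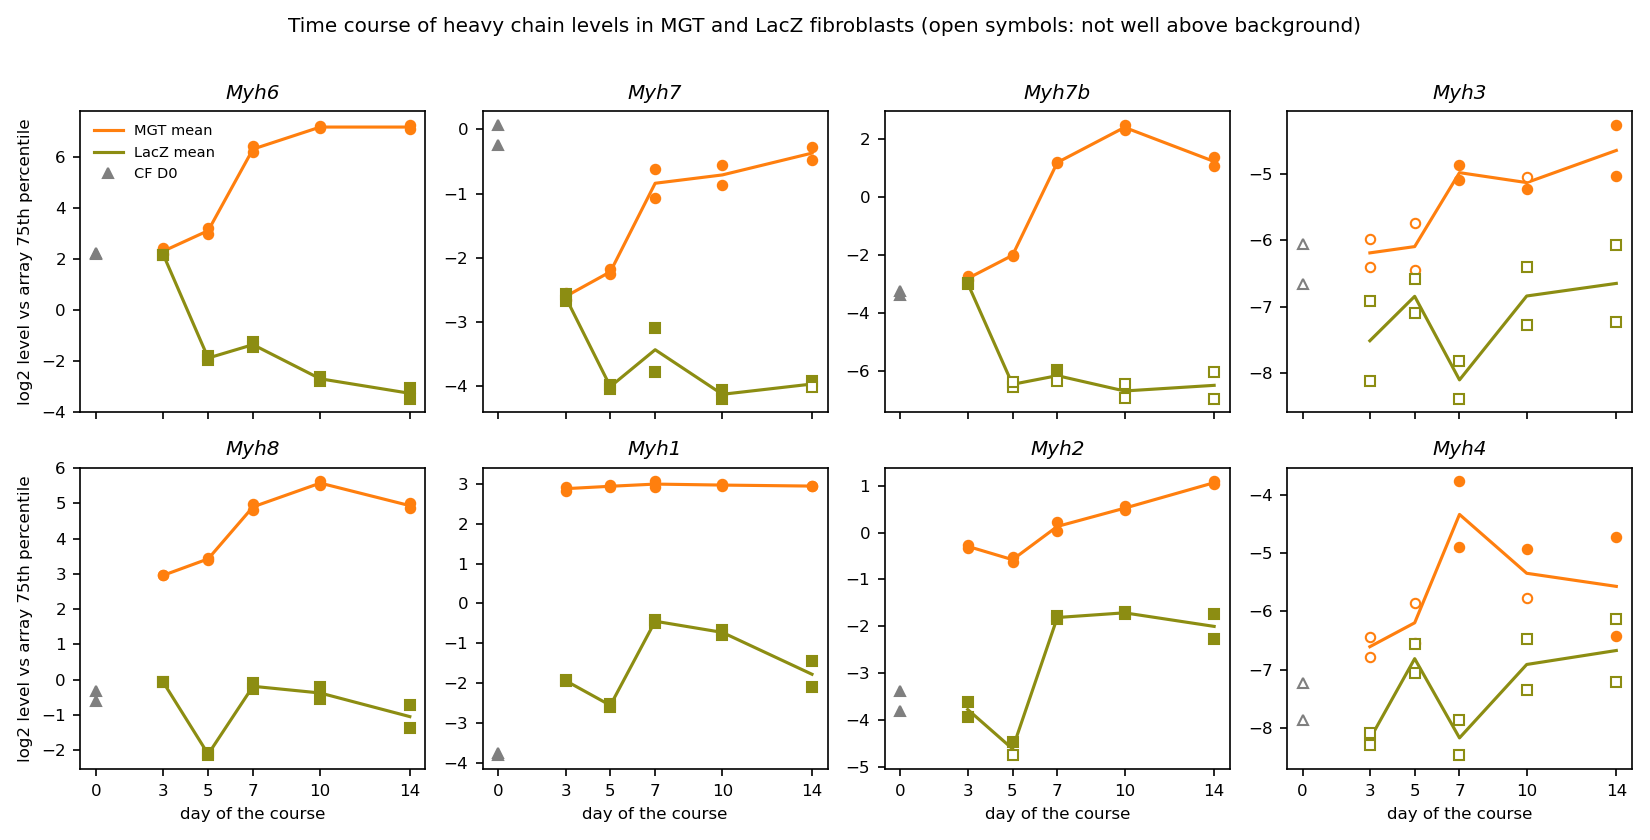
Log2 level against day for the 8 heavy chains in MGT (orange) and LacZ (green) fibroblasts, with both arrays as points, lines through the means and the uninfected fibroblasts as grey triangles; open symbols are not well above background. Myh1 stays between 2.83 and 3.06 with MGT from day 3, whereas Myh6 moves from 2.41 and 2.20 to 7.21 and 7.14 by day 10.

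The difference in timing was itself tested, as the MGT effect on day 10 minus that on day 3, a contrast in which 1.38% of all genes were called higher. There 4 of 8 members were called. Myh6 gained 9.73 ± 0.39 (limma adjusted p = 1.1e-11) and Myh7b 8.94 ± 0.95 (adjusted p = 1.3e-05). Myh7 gained 3.4 (limma adjusted p = 0.04) and Myh8 2.91 (adjusted p = 0.043), but these calls were lost whichever of the 8 arrays was left out. The effects in those fits ranged from 3.25 to 3.56 for Myh7 and from 2.75 to 3.08 for Myh8. Both calls were kept with both iPSC2-CM D29 arrays left out, an alternative chosen after seeing the data. Myh1 at -1.12 and Myh2 at -1.25 were not called.

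The balance between the cardiac chains was read as the difference between the Myh6 and Myh7 probes within an array; its zero has no meaning, but its changes between groups do. It was 2.17 and 2.43 in CF D0, 4.96 and 4.86 with MGT on day 3 and 4.71 and 4.83 with LacZ on day 3. With MGT it went on to 7.76 and 8.02 on day 10 and 7.53 and 7.56 on day 14. With LacZ it was 1.27 and 1.58 on day 10 and 0.86 and 0.52 on day 14. The groups were within 0.14 of each other on day 3 and apart by 3.21, 5.08, 6.46 and 6.85 on the later days. Averaged over days the MGT minus LacZ difference was 4.35 (exact permutation test within days, two-sided p = 2.6e-04, the smallest that the 7776 arrangements can give), higher with MGT on 5 of 5 days. With both Myh6 probes averaged it was 2.83.

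**Figure D3:**
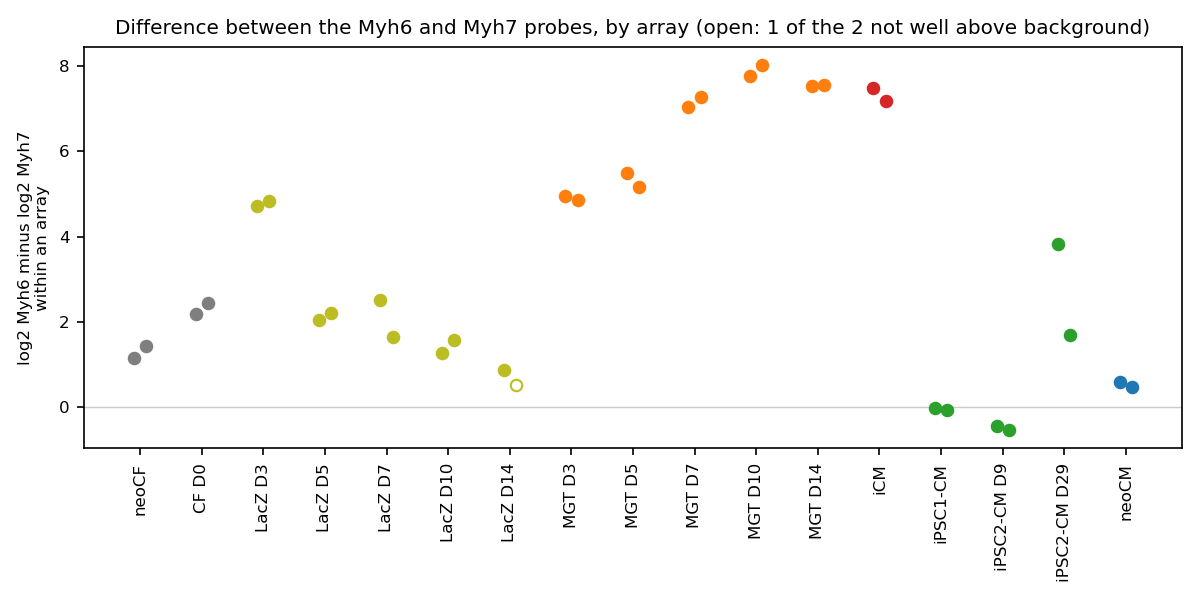
Difference between the Myh6 and Myh7 probes (y axis, log2) in each array of the 17 groups (x axis); the open circle marks an array on which Myh7 was not well above background. The iCM arrays, at 7.48 and 7.19, lie with the late MGT arrays and far above neoCM at 0.58 and 0.46.

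Freshly isolated heart cells gave the reference for the heart itself. In neoCM against neoCF, 5 of 8 members were called higher and 1 lower, with 15.5% and 16.1% of all genes called in those directions. Myh6 was 8.60 and 8.70 in neoCM and 5.77 and 5.28 in neoCF, a difference of 3.13; Myh7 was 8.03 and 8.23 against 4.61 and 3.85, a difference of 3.9. Myh7b differed by 4.55, Myh8 by 3.83 and Myh3 by 3.4. Myh3 was at its highest in the series in neoCM, at 1.48 and 1.38. Myh1 was the member that was lower in neoCM, where it was not well above background, and -3.82 and -5.30 in neoCF (at least 1.89-fold lower; fitted log2 -3.17, and -0.85 with normexp and quantile scaling, under 2-fold). Cardiac transcripts were also measured in neoCF: the summed level of 8 cardiomyocyte markers was 6.85 and 6.28 in neoCF, 10.5 and 10.6 in neoCM and 3.88 and 3.67 in CF D0, and the part of other cells in these values was not tested.

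Culture of the fibroblasts went with lower cardiac chains. In CF D0 against neoCF, 5 of 8 members were lower (18.2% of all genes) and 1 higher (16.3%): the log2 differences were -4.33 for Myh7, -3.84 for Myh7b, -3.53 for Myh8 and -3.31 for Myh6, Myh3 was at least 10.0-fold lower, and Myh2 rose by 2.51. From CF D0 to LacZ D14, the differences were -5.49 for Myh6 and -3.88 for Myh7, and Myh7b was at least 2.55-fold lower (3 of 8 lower; 11.9% of all genes), while Myh1 rose by 2.01 (limma adjusted p = 0.029; 1 of 8 higher, 15.7% of all genes), a call lost whichever of the 4 arrays was left out (adjusted p from 0.05 to 0.14).

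The 4-week iCM had less Myh6 and far less Myh7 than neoCM, and more of the adult chains Myh1 and Myh2. Against neoCM, 2 of 8 members were higher and 5 lower, with 18% and 20.9% of all genes called in those directions. Myh6 was 7.19 and 6.88 in iCM, 3.05-fold below neoCM (log2 -1.61 ± 0.28, limma adjusted p = 5.1e-05). That difference was -0.67 to -0.72, under 2-fold, with quantile scaling alone, with normexp background correction and quantile scaling together, and in the authors' processed table, and the 5′ probe read -0.23 in iCM and 3.02 in neoCM. Myh7 was -0.29 and -0.31 in iCM against 8.03 and 8.23 in neoCM, 344.5-fold lower (-8.43 ± 0.61, adjusted p = 7.1e-10). Myh7b, at 0.60 and 0.49, differed by -4.54 on the log2 scale.

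Of the skeletal chains of iCM against neoCM, adult chains Myh1 and Myh2 were higher and both developmental chains lower. Myh1 was 1.36 and 1.41 in iCM and not well above background in neoCM (-7.83 and -7.62), at least 116-fold higher (9.11 ± 0.73, limma adjusted p = 2.9e-09). Myh2 was 0.55 and 0.46 against -6.94 and -7.14, neither of these well above background, at least 63.1-fold higher (7.54 ± 0.67, adjusted p = 1.2e-08). The third adult chain, Myh4, was well above background on 1 of 2 iCM arrays and 0 of 2 neoCM arrays and was not called (adjusted p = 0.57). Myh8 was 4.47 and 4.28 against 6.60 and 7.17, and Myh3 -2.46 and -2.57 against 1.48 and 1.38, log2 differences of -2.51 and -3.95.

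iCM differed from the iPSC-derived cardiomyocytes (mean of iPSC1-CM and iPSC2-CM D9) in much the same genes, with 3 of 8 members higher and 3 lower, in a comparison in which 20.6% and 26.2% of all genes were called. This comparison and the one with neoCM use the same iCM arrays, so they are not independent. The iPSC1-CM arrays had Myh7 at 7.66 and 7.47, those of iPSC2-CM D9 at 8.71 and 9.12, and the log2 difference of iCM from their mean was -8.54. Myh1 was higher in iCM by at least 144-fold and Myh2 by at least 78.3-fold, since neither was well above background in these iPSC-derived cells. Myh3 was called higher in iCM, where it was -2.46 and -2.57; it read -4.83 and -5.12 in iPSC1-CM and was not well above background in iPSC2-CM D9. Meanwhile the differences of Myh7b and Myh8 were -4.75 and -2.34. Myh6 differed by -0.93 (limma adjusted p = 0.0018), under 2-fold.

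**Figure D4:**
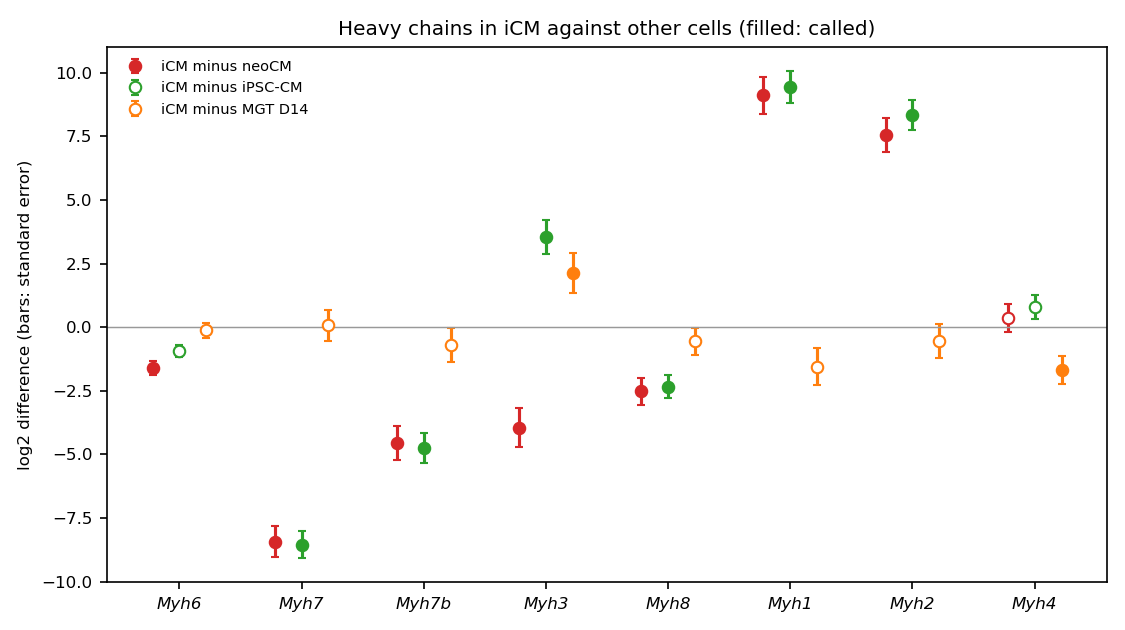
Log2 difference of each heavy chain (x axis) in iCM against neoCM (red), the iPSC-derived cardiomyocytes (green) and MGT D14 (orange), with standard errors as bars and filled points for called differences. Myh1 and Myh2 lie above 7 and Myh7 below -8 in the first 2 comparisons, and all members lie within 2.13 of 0 against MGT D14.

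Against MGT D14, iCM differed less. 1 of 8 members was called higher (8.63% of all genes) and 1 lower (11.8%): Myh3 by 2.13 (limma adjusted p = 0.037) and Myh4 by -1.7 (adjusted p = 0.02, on faint signals). The Myh3 call was lost whichever of the 4 arrays was left out (adjusted p from 0.063 to 0.2), and the Myh4 call without iCM replicate 2 (-0.93) or MGT D14 replicate 1 (-0.85) and in the authors' table (-0.76). Myh6 differed by -0.13, Myh7 by 0.07 and Myh1 by -1.56 (adjusted p = 0.1). Against LacZ D14, 7 of 8 were higher (10% of all genes), by 10.31 for Myh6, 5.43 for Myh8, 3.67 for Myh7, 3.16 for Myh1 and 2.51 for Myh2, and by at least 36.9-fold for Myh7b and 4.41-fold for Myh3. Those all-gene splits also moved with scaling: of the genes called, 35.4% were higher in iCM than in LacZ D14 here and 53.6% after quantile scaling, 44% and 55% against the iPSC-derived cells, and 42.3% and 53.3% (authors' table) against MGT D14.

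At days 9 and 13 the iPSC-derived cells held both cardiac chains near the level of neoCM. In iPSC1-CM, 2 of 8 members were lower than in neoCM (17.9% of all genes): Myh3, at -4.83 and -5.12, with a log2 difference of -6.41, and Myh6, at 7.63 and 7.40, with -1.13 (limma adjusted p = 0.0017; -0.98, under 2-fold, with quantile scaling). In iPSC2-CM D9, 1 of 8 was lower (19.8% of all genes): Myh3 again, which was not well above background there (at least 110.2-fold lower). The other members were not called, which does not show that they were equal. Between the lines, iPSC2-CM D9 had more Myh7b (6.62 and 6.47 against 4.12 and 3.97) and more Myh8 (7.5 and 7.8 against 6.0 and 5.55), 2 of 8 higher (9.44% of all genes), and less Myh3, 1 of 8 lower (11.9%), at least 1.3-fold. The Myh3 call was lost with quantile scaling (limma adjusted p = 0.053), normexp and quantile scaling (-0.69), the authors' table (-1.41), averaged probes (-1.27) and array weights (0.063), and in 3 of 4 fits without 1 array, leaving out either iPSC1-CM array or iPSC2-CM D9 replicate 2. The Myh8 call was lost without iPSC1-CM replicate 2 (0.068) or iPSC2-CM D9 replicate 2 (0.059). Line and day differ together here and cannot be told apart.

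The long culture of line 2 gave 2 unlike arrays. On replicate 1 and 2 of iPSC2-CM D29, Myh6 was 6.88 and 8.20, Myh7 3.05 and 6.53, Myh7b 1.16 and 4.97, Myh8 4.23 and 7.14 and Myh3 -2.91 and 0.94. Myh1 was -3.77 and Myh2 -4.02 on replicate 1, and neither was well above background on replicate 2. Replicate 1 was thus lower in all 5 cardiac and developmental chains and was the iPSC-derived array with measurable adult fast chains. The summed level of 6 fibroblast markers was 7.86 on replicate 1 and 3.13 on replicate 2, whose part in the result was not tested. Against day 9, Myh3 was higher (at least 20.6-fold), and Myh1 (1.84) and Myh2 (1.69) were called higher too, 3 of 8 (14.7% of all genes); Myh7 (-4.13), Myh7b (-3.48) and Myh8 (-1.96) were lower, 3 of 8 (9.57%). Without replicate 1 the differences of Myh1 and Myh2 turned to -0.23 and -0.25, and a fit of those groups alone called 0 of 8 members and 0 genes.

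Other thick filament genes moved with the heavy chains. Of 22 genes fixed as a list (light chains, myosin binding proteins, M-band proteins, titin and the factors that fold or turn over myosin), 21 were tested. With MGT 12 were higher and 1 lower on day 3, 13 and 1 on day 5, 14 and 0 on day 7, 13 and 0 on day 10 and 14 and 2 on day 14, with list medians from 2.61 on day 3 to 4.8 on day 14. Between 3.18% and 5.84% of all 19413 genes were called higher on these days, and 361 to 1428 genes were called lower. On day 3 the largest rises were those of Myl7, the atrial regulatory light chain (8.15), Myom2, an M-band protein (5.99), and Ttn, titin (5.85), and Myom3 fell by 2.23. On day 10 Myl1, a fast skeletal light chain, was at least 481-fold higher, and Myl7 was higher by 10.26 on the log2 scale. In iCM against neoCM, 1 list gene was higher (Mybpc1, slow skeletal myosin binding protein, 1.66) and 13 lower, led by Myl3 and Myl2, the ventricular light chains, with log2 differences of -13.77 and -11.87. There 18% of all genes were called higher and 20.9% lower, so the 1 higher gene is not read as a result about the list. In neoCM against neoCF 19 were higher (15.5% of all genes). In iCM against MGT D14 2 were higher and 4 lower, with 8.63% and 11.8% of all genes called, so these small counts are not read as a result about the list.

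Of the nonmuscle and smooth muscle heavy chains, 1 was called in the MGT cells. Of Myh9, Myh10, Myh11 and Myh14, 0 were called on days 3 and 5 (limma), and Myh14, a nonmuscle chain, was higher from day 7, by 2.21, 3.35 and 3.74 on days 7, 10 and 14. Between 3.18% and 5.84% of all genes were called higher on the MGT days, so counts of 0 or 1 are not read as a result about this list. In iCM against neoCM, Myh11, the smooth muscle chain, had a log2 difference of -3.76, Myh14 of -1.16 and Myh9 of 1.15.

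Of 12 genes known to regulate heavy chain choice, 0 were called higher with MGT on day 3. On day 5 there was 1 (Myocd, a coactivator of serum response factor, 1.81). On day 7 there were 2 (Myocd 2.4 and Sox6, a repressor of slow chains in skeletal muscle, 1.58), and 1 on each of days 10 and 14 (Sox6). On these days 0 were called lower. Between 3.18% and 5.84% of all genes were called higher, so counts this small are not read as a result about the list. In iCM against neoCM 3 were higher (Tead4 1.98, Mef2a 1.65 and Thrb, a thyroid hormone receptor, 1.53) and 3 lower (Nkx2-5, a cardiac homeobox factor, -8.53, Myocd -3.0 and Sox6 -2.06). Of all genes, 18% were called higher and 20.9% lower in that comparison. Of the delivered factors, Mef2c was higher with MGT on all 5 days, by 6.78 on day 3 and 2.26 on day 14, and Gata4 and Tbx5 were not called on any; whether their probes can read the transgene is not given in the sources used here.

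Markers of the cell types showed what moved beside the heavy chains. Of 8 cardiomyocyte markers 5 were higher with MGT on day 3, 8 on day 10 and 7 on day 14, and 7 were lower in iCM than in neoCM. Of 10 tested skeletal muscle markers 3, 4 and 2 were higher with MGT on days 3, 10 and 14, and in iCM against neoCM 2 were higher and 4 lower. The shares of all genes called higher with MGT on these days were 3.18%, 5.24% and 5.84%. In iCM against neoCM 18% of all genes were higher and 20.9% lower, so 2 of 10 higher is near the share of all genes and is not read as a result about the list. The summed level of the skeletal muscle markers was 0.77 and 0.70 with MGT and -0.68 and -0.73 with LacZ on day 3, and 4.29 and 4.2 against 0.76 and 1.47 on day 14. Tnnt3, the fast skeletal troponin T, was 3.79 and 3.67 with MGT on day 14 against -3.88 and -3.39 with LacZ. Actn3, the fast skeletal alpha-actinin, was 2.01 and 2.19 in iCM against -3.20 and -2.91 in neoCM. With MGT on day 14 it was -3.43 and -3.42 against -3.05 and -4.13 with LacZ. Other fast skeletal markers went the other way in iCM. Tnni2 was -1.44 and -1.43 in iCM against 1.95 and 1.82 in neoCM, and Atp2a1 -0.90 and -0.72 against 1.03 and 2.13. Myod1, a myogenic regulator, was not well above background in iCM or neoCM, but was so in CF D0 and in the iPSC-derived groups. Other listed regulators differed from it. Myf6 was well above background in both, at -5.24 and -5.15 in iCM and -4.70 and -4.78 in neoCM. Myog and Pax7 were so on both neoCM arrays, while in iCM Myog was so on replicate 1 only and Pax7 on neither array. Myf5 was so in neither group.

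Markers of nonmuscle cells differed between several groups. All 4 macrophage markers were higher in iCM than in neoCM (18% of all genes), with summed levels of 5.46 and 5.40 against 1.56 and 1.48, and all 4 were higher than in the iPSC-derived cells (20.6% of all genes). Of 6 fibroblast markers 3 were higher and 1 lower in iCM than in neoCM, where 20.9% of all genes were lower, so the 1 lower marker is not read as a result about the list. With MGT 0 were called up to day 10 and 2 were lower on day 14. Of 19413 genes, 361 to 665 were called lower with MGT on days 3 to 10 and 1428 on day 14, so 0 of 6 up to day 10 is not read as a result either. None of the 4 smooth muscle markers was called with MGT on any of the 5 days (limma), and of 4 endothelial markers 1 was lower on day 7 (Cdh5, a junction cadherin, -2.78). With so few of all genes called, such counts are not read as a result about these lists. In iCM 3 smooth muscle and 3 endothelial markers were lower than in neoCM (20.9% of all genes). In neoCM against neoCF, 4 of 4 macrophage and 3 of 4 endothelial markers were lower (16.1% of all genes) and 4 of 4 smooth muscle markers higher (15.5%). Only 2 of 6 fibroblast markers were lower there, with a list median of -1.44. Their summed level was 8.69 and 8.68 in neoCM and 9.02 and 9.05 in neoCF. All 6 fibroblast markers were lower in iPSC2-CM D9 than in iPSC1-CM (11.9% of all genes), and 3 of 4 macrophage markers were higher in LacZ D14 than in CF D0 (15.7%). The part of these cells in the heavy chain levels was not tested.

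Across the 17 group means the members formed sets, given as a description of points that share their arrays. Myh6, Myh7b and Myh8 rose and fell together (r = 0.966 for Myh6 and Myh7b, 0.956 for Myh7b and Myh8, 0.935 for Myh6 and Myh8), as did Myh1 and Myh2 (0.972). Myh7 was nearer to Myh7b (0.882) than to its genomic neighbour Myh6 (0.782), and ran against Myh1 (-0.754) and Myh2 (-0.742). The genes most like Myh6 were Tnni3, cardiac troponin I (0.968), Myh7b itself, Rbm24, a muscle splicing factor (0.963), and Actn2, the Z-disc alpha-actinin (0.961). Rbm24 was also first for Myh7b (0.978) and Myh8 (0.976). Myh7 was most like Gm5105 (0.976), Camta1 (0.974) and Kcnk3, a potassium channel (0.969). After each other, Myh1 and Myh2 were most like Rasa4 (0.965 and 0.962), with Fst, follistatin, next for Myh2 (0.959), and Myh3 was most like Ptgds (0.928).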

How the data were processed

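Total RNA was extracted with TRIzol and RNeasy columns, per the labels' protocols, and hybridised to single-colour Agilent 8x60K mouse arrays. The deposited intensity values are processed signals from Feature Extraction 10.7.3.1 (build mm9), per the file headers; background correction was already done there by the authors' scanner software. A processed table of log2 values deposited by the authors, with its normalization not given in the sources used here, served as an alternative. Its columns had medians from 7.49 to 7.52 and correlated with the scanner values at 0.982 or more. Sequence and flag columns were used as deposited.

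From 59305 non-control spots (55681 probes), log2 signals were scaled to each array's 75th percentile. Probes that no group measured well above background in duplicate were dropped (43382 stayed), and the brightest of those left stood for a gene (19413 genes; 192 have a missing value). limma 3.58.1 in R 4.3.3 fitted 17 group means on all 34 arrays, with 17 residual and 1.99 prior degrees of freedom, and was tested on simulated data. Python 3.11.15 read the sequences. Replicate numbers do not pair arrays. The genes named are the members, the largest called changes (at most 3 each way) of fixed lists, fixed cell type markers and the 5 genes most like a member. Members and lists were chosen with earlier results of these data known. Alternatives covered scaling, background, filter, probe choice, samples fitted, slide, replicate block, array weights, a 1.5-fold null and each replicate left out.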

Additional observations from a re-analysis of the deposited data

Results flagged for a closer look

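The effect of MGT on 4 heavy chains differed between days 3 and 10 in the test of that difference (limma, Benjamini-Hochberg over all genes): Myh6 by 9.73 on the log2 scale, Myh7b by 8.94, Myh7 by 3.4 and Myh8 by 2.91. For Myh6 the adjusted p stayed between 2.3e-10 and 4.7e-10, and for Myh7b between 6.7e-05 and 1.9e-04, when any of the 8 arrays was left out. For Myh7 the effect lay between 3.25 and 3.56 and for Myh8 between 2.75 and 3.08, and neither was called in any of these fits. Groups hold 2 arrays, too few to look for an array far from the others of its group.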

How the results depend on the processing

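Of 136 member differences 81 were called, and the calls kept were 78 with quantile scaling, 73 with normexp and quantile scaling together, 74 in the authors' table, 78 without the filter, 79 with probes averaged, 74 with only the compared groups, 74 with array weights and 69 against a 1.5-fold null. The fixed slide block fitted only the slide that held neoCM replicate 1 and no other array, so it adjusted for no other slide. It kept 47 of 51 calls in the comparisons whose groups shared a slide. The random slide block, with an estimated correlation of -0.109, kept 30 of 30 calls in the comparisons without a shared slide. There slide and group cannot be told apart, so neither fit tests for an effect of slide. Where not stated, the cause of a change was not tested. Quantile scaling and the authors' table moved the all-gene median by up to 0.22 and 0.25 (iCM against iPSC-derived cells).

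All-gene counts moved as follows. With normexp and quantile scaling together, MGT D14 against LacZ D14 went from 2561 to 1487, iCM against LacZ D14 from 5492 to 3406 and iCM against MGT D14 from 3962 to 2569, where 1 member was called in place of 2, as in the authors' table. Without the filter the day 14 count was 4754. With only the compared groups, the day 3 count went from 979 to 1598, the day 10 minus day 3 effect from 382 to 1035 and iPSC2-CM D29 against D9 from 4709 to 0; members called were 4 for iPSC1-CM and 2 for iPSC2-CM D9 against neoCM, and 0 for D29 against D9. With array weights the counts were 1797 on day 3 (5 members), 1211 for the effect difference and 537 for D29 against D9 (0 members), with again 4 members for iPSC1-CM and 2 for iPSC2-CM D9 against neoCM. With both iPSC2-CM D29 arrays left out, an alternative chosen after seeing the data, they were 1505 on day 3, 1004 for the effect difference and again 4 and 2 members; all 75 member calls remained and 13 were gained. The fixed slide block left 2 members in the effect difference, and the random one gave 2 in iPSC2-CM D9 against neoCM.

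Against a 1.5-fold null, a stricter test, the counts were 516, 929, 1013, 995 and 1351 on days 3, 5, 7, 10 and 14, 132 for the effect difference (2 members), 3004 for D29 against D9 (3 members) and 2455 for iCM against MGT D14 (0 members), with 1 member each for iPSC1-CM against neoCM and for iPSC2-CM D9 against iPSC1-CM.

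With 1 array left out, 306 of 352 refitted member calls were kept, 44 were lost and 2 were reversed. The reversed calls were in D29 against D9: Myh1 ranged from -0.23 without replicate 1 of D29 to 3.9 without replicate 2, and Myh2 from -0.25 to 3.63. Counts ranged from 235 to 463 genes and stayed at 2 members in the effect difference, from 3 to 7 members in D29 against D9, from 1 to 4 in iPSC2-CM D9 against iPSC1-CM, and from 0 to 1 in iCM against MGT D14. The Myh6 to Myh7 balance was 4.28 to 4.42 without 1 replicate number, with an exact permutation p of 0.062, the smallest that 1 array a group allows.

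Replicate numbers are shared only as numbers: deviations of same-numbered arrays correlated at -0.0641 to 0.174. With the replicate block 80 of 81 calls were kept and 2 gained. Myh8 was lost from the effect difference (2.91, limma adjusted p = 0.053), and Myh2 gained a call on day 7 (1.94) and in LacZ D14 against CF D0 (1.6).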
